A study of Mus musculus with 8 samples.

Results

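The cytosolic ribosomal protein genes were taken as all genes annotated as protein-coding whose symbol is Rps or Rpl followed by a digit, together with Rplp0, Rplp1, Rplp2 and Rpsa and without the Rps6k kinases. The rule gave 91 of the 30302 genes held by both deposited tables. By name they are 31 genes of the small subunit, 43 of the large subunit, 3 of the stalk, 7 paralogues of another member, 6 genes that carry a pseudogene name although they are annotated as protein-coding, and Rps19bp1, whose product binds Rps19 and is not a ribosomal protein. The cells with both ligands were compared with the cells with the antagonist alone. Of the 88 genes that could be tested, 81 were lower with both ligands, where 48.5% of all genes were. The median change over all 88 was -8.69%. Of them 1, Rps12, passed the test over all genes as lower, where 0.16% of all genes did. Without antagonist replicates 2 and 4, a choice made after the data were seen, the median change was smaller. In that fit 0 members and 0 of all genes were called.

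Each cytosolic ribosome joins a small subunit, which decodes the mRNA, and a large subunit, which forms peptide bonds, and every subunit takes a single copy of most of its proteins. The mRNAs of these proteins are short, abundant and stable, and they begin with a run of pyrimidines, the 5′ terminal oligopyrimidine (TOP) motif, through which mTORC1 and Larp1 control their translation together. The mouse genome also holds many processed pseudogenes of them, which are near-identical copies of the mRNA without introns.

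By the study's account the RNA came from primary microglia, macrophage-like cells of brain tissue. They were cultured from the striata of wild-type C57/BL6 pups 2 to 4 days old and grown for 15 days. Activation lasted 48 h in all cultures and used LPS at 0.01% and interferon-γ at 0.002% (the reagent list of the study names the human protein), and ligands were added at 24, 32 and 40 h. By their titles, 4 libraries received SCH 58261, an antagonist of the adenosine A2A receptor (antagonist group), and 4 received SCH 58261 with 200 nM 2-Cl-IB-MECA, an agonist of the adenosine A3 receptor (dual group). A separate treatment entry in the labels assigns 2-Cl-IB-MECA the other way round, so the direction of each difference rests on the titles, to which the count columns correspond.

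Libraries held 32630602 to 45878639 counts. Nothing states that replicates came from separate animals, and p-values then measure only the spread between these libraries. The 14 microglial markers summed to 1730 to 1870 CPM (counts scaled to a common library size) in the antagonist group and 1640 to 1740 in the dual group, and the 9 astrocyte markers to 6260 to 6540 and 6350 to 6800, with no marker of either list at 0. The study's methods describe the cultures as almost purely microglial by CD11b labelling, yet the astrocyte markers summed higher than the microglial ones in every library. The share of astrocytes was not tested here, so the values belong to the whole cultures. In such bulk samples, fewer cells of a type and less RNA per cell cannot be told apart.

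Some members have a pyrimidine run at or near the start of the RefSeq gene model (GRCm38.p6). Windows of 30 bases, 15 of them before the annotated start, with that run in capitals, are given for Rps27, Rps27l, Rps6 and Rplp2. These genes were picked from the members that have a run and that the results return to. The run spans the annotated start in Rps27, Rps6 and Rplp2, whereas in Rps27l it ends upstream of it and is not part of the annotated mRNA.
Rps27 at chr3:90213634-90213663, minus strand: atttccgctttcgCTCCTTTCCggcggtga
Rps27l at chr9:66946071-66946100, plus strand: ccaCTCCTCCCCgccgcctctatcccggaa
Rps6 at chr4:86857353-86857382, minus strand: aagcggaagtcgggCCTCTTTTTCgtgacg
Rplp2 at chr7:141447636-141447665, plus strand: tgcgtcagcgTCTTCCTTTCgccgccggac

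Of the 65 members with a window in the RefSeq table, 36 (55.4%) had a run of at least 5 pyrimidines (C or T, gene strand only) that reached within 5 bases of the start, against 36.7% of all 27025 genes. A run of at least 9 bases was found at 24 members (36.9%) and at 8.09% of all genes. Rps12, the member called below, had no run of at least 5 that reached the start, nor had Rplp0, Rpl41 and Rpsa. The match describes letters at an annotated start, which can lie off the start used in these cells.

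A second set of sequences shows how alike some members and pseudogene rows are, which bears on whose reads were counted. The first 60 coding bases (GENCODE M21, GRCm38) of Rps27 on chromosome 3 and of the retrogene Rps27rt on chromosome 9 had 0 differences, and Rps27l differed from Rps27 at 18 of the 60 positions, shown in capitals.
Rps27: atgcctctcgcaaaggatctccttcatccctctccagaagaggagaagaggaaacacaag
Rps27rt: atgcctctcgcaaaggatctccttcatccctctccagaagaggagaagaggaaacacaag
Rps27l: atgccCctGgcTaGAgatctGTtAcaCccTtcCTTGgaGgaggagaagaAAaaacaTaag
The coding sequence of Rpl26 (435 bases) differed at 2 positions from the pseudogene row Gm15772 on chromosome 5, and that of Rpl30 (345 bases) at 1 position from Gm12191 on chromosome 11. The windows that hold the first difference, coding bases 147 to 206 and 66 to 125, are given with the pseudogene's base in capitals.
Rpl26: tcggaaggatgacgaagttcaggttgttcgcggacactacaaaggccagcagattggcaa
Gm15772: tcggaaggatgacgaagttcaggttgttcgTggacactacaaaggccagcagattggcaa
Rpl30: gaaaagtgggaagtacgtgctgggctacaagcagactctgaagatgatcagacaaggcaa
Gm12191: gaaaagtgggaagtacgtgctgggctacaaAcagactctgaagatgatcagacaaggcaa

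The levels of the members differed widely. On the deposited FPKM scale (fragments per kilobase of annotated exon, scaled to library size), the median member had a mean of 115 over the 8 libraries, and 10 members were among the 100 highest genes. Rplp1, a stalk protein that helps recruit elongation factors, was the highest member with 1460 ± 138 FPKM in the antagonist group and 1270 ± 57.4 in the dual group (SD, n = 4 each), rank 17 of all genes. It was followed by Rpl36 with a mean of 652, Rpl41 with 530, Rplp0 with 469 and Rps15 with 435. Rplp0 and Rps15 are neighbours whose libraries overlapped in FPKM in both groups (472 to 517 against 421 to 483 in the antagonist group, and 409 to 467 against 382 to 444 in the dual group).

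Below 1 FPKM stood 5 members. Rpl9-ps1 had 1 count in each of 2 dual libraries and 0 in the other 6. Rpl3l, the muscle counterpart of Rpl3, had 3 to 13 counts in every library, and Rpl39l, the testis counterpart of Rpl39, had 7, 12, 11 and 11 counts in the antagonist libraries and 2, 2, 1 and 6 in the dual libraries; these 3 members did not pass the low-count filter. The other two were Rpl36al with a mean of 0.468 FPKM and Rpl29 with 0.851. Rpl29, Rpl34, Rpl24, Rpl21, Rps10 and Rps2 code for proteins of the standard ribosome, yet their rows held between 0.851 and 3.36 FPKM. Of their mRNA, 49.0% (Rps10) to 85.3% (Rps2) of the 31-base words also occur in transcripts of other genes. Over the 90 members with a value the median was 58.2%, so such sharing was not particular to these low rows.

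The comparison of the dual group with the antagonist group asks what the A3 agonist adds to A2A blockade. Of the 88 members past the filter, edgeR called 1 lower, against 0.16% of the 18756 genes tested, and 0 higher, against 0.048% (edgeR quasi-likelihood test, Benjamini-Hochberg adjusted p under 0.05 over all genes). At an unadjusted p under 0.05 it was 70 members lower, or 79.5%, where the background was 6.81% of all genes, and 0 higher, where it was 5.98%. Among the other genes at a log2 CPM of 6 or more, 12.6% were lower at that threshold, and the share was higher still in those with a short coding sequence (given below by length class). A log2 fold change below 0 was found for 81 members (48.5% of all genes) and one above 0 for 7 (51.5% of all genes).

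The sizes were small and alike. The median log2 fold change of the members was -0.13, with the middle of the members between -0.16 and -0.10 (quartiles), and the median over all genes tested was 0.00. After Rps12, the smallest adjusted p was 0.0557, and 21 members had one under 0.1 in edgeR. With the DESeq2 Wald test on the same counts, 45 members were called lower, where 3.36% of the 8877 genes with an adjusted p were, and 0 were called higher (1.34% of all genes). The CPM of the 4 dual libraries lay below those of all 4 antagonist libraries for 41 members (4.06% of all genes) and above them for 0 (3.36%).

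**Figure D1:**
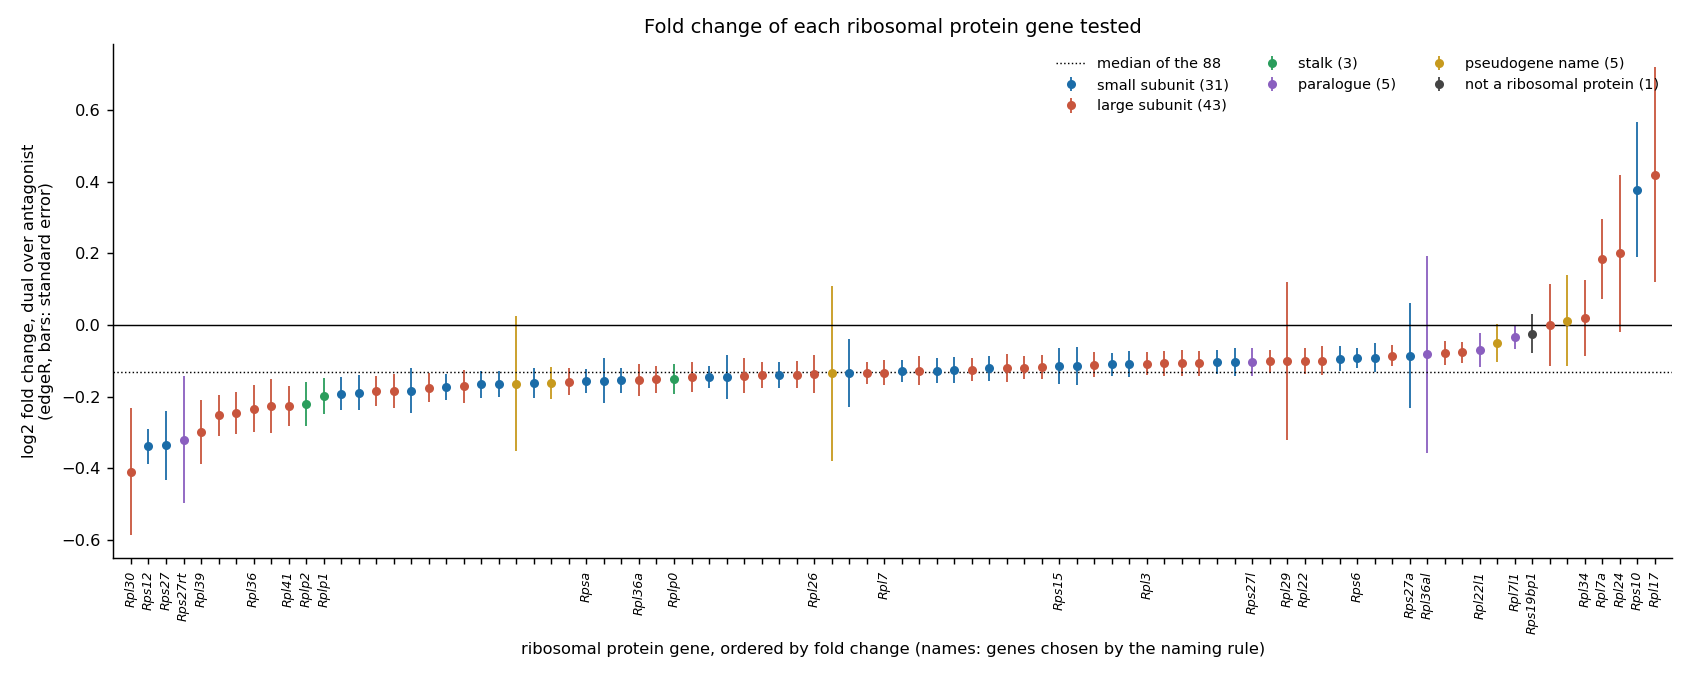
Log2 fold change of the dual over the antagonist group (vertical axis, edgeR) for the 88 members tested, ordered from lowest to highest, coloured by class and with names for those chosen to be named; bars are standard errors and the dotted line is the median of -0.13. Most members lie in a narrow band below 0, and the 5 members at the right with the largest values, from Rpl34 at 0.02 to Rpl17 at 0.42, have wide bars.

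Among the 31 small subunit genes, 28 were lower at an unadjusted p under 0.05 in edgeR, where 6.81% of all genes were. Their median log2 fold change was -0.13. Rps12 (ENSMUSG00000061983, chr10:23785183-23787275, minus strand), a protein of the small subunit head, was the member called. Its CPM were 207, 230, 208 and 236 in antagonist replicates 1 to 4 and 165, 172, 167 and 192 in dual replicates 1 to 4. Every dual library was below every antagonist library. The log2 fold change was -0.34 ± 0.05 (SE), a change of -20.9%, with an adjusted p of 0.024 in edgeR. The call was lost without antagonist replicate 4, without dual replicate 3 and without antagonist replicates 2 and 4 together, fits in which 0 of all genes were called. Its row is not unique: Snora33 lies in it on the same strand, 90.5% of the 31-base words of its mRNA occur in other genes and the coding sequence of Rps12-ps3 on chromosome 19 had 0 differences over 396 bases.

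Rps27, a zinc finger protein of the small subunit, had the next lowest value of this class. It was at 261, 364, 248 and 379 CPM in the antagonist libraries and at 247, 237, 250 and 259 CPM in the dual libraries, a log2 fold change of -0.34 ± 0.10 with an adjusted p of 0.142 in edgeR. Antagonist replicates 2 and 4 stood high, and antagonist replicates 1 and 3 lay at or near the dual libraries. Rps6, the protein phosphorylated by the S6 kinases, had the smallest spread of the small subunit. Its CPM were 429, 446, 440 and 439 against 411, 412, 410 and 412, so the groups did not overlap, and the log2 fold change was -0.09 ± 0.03 (adjusted p = 0.167 in edgeR).

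Rpsa, the laminin receptor protein of the small subunit, was at 468, 505, 481 and 512 CPM in the antagonist group and at 446, 446, 438 and 434 in the dual group, again without overlap (log2 fold change -0.16 ± 0.03, adjusted p = 0.059 in edgeR). Rps27a, made as a fusion with ubiquitin, was at 142, 174, 114 and 148 CPM against 99.6, 103, 158 and 182. Its libraries spread widely and overlapped, and its log2 fold change of -0.09 ± 0.15 turned above 0 without any 1 of 3 libraries. The highest value of the class was that of Rps10, with 2.08 ± 0.721 CPM against 2.70 ± 0.267 and a log2 fold change of 0.38 ± 0.19 (adjusted p = 0.416 in edgeR).

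The 43 large subunit genes gave a median log2 fold change of -0.13, with 37 lower at an unadjusted p under 0.05 in edgeR (6.81% of all genes). Rpl30, whose yeast counterpart also binds its own transcript, had the lowest value of all members. Its CPM were 97.9, 108, 104 and 51.7 in the antagonist group and 76.7, 89.2, 54.6 and 52.1 in the dual group. Antagonist replicate 4 lay below all dual libraries, and the log2 fold change of -0.41 ± 0.18 had an adjusted p of 0.337 in edgeR; 616 bases of its exons overlap D730044K07Rik on the opposite strand. Rpl39, one of the smallest proteins of the exit tunnel, was at 202, 265, 193 and 284 CPM against 183, 184, 191 and 208 (log2 fold change -0.30 ± 0.09, adjusted p = 0.15 in edgeR). As for Rps27, antagonist replicates 2 and 4 were the high libraries.

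Rpl41, the shortest of the proteins, repeated that pattern with 605, 738, 609 and 735 CPM in the antagonist group and 559, 584, 591 and 564 in the dual group (log2 fold change -0.23 ± 0.06, adjusted p = 0.0851 in edgeR). Rpl36 was at 239, 304, 240 and 305 CPM against 235, 233, 238 and 220 (log2 fold change -0.23 ± 0.07, adjusted p = 0.138 in edgeR). In both genes the groups did not overlap, by a narrow margin. Rpl4, one of the longest ribosomal proteins, was among the most even, with 719, 713, 711 and 716 CPM against 690, 682, 656 and 685 and a log2 fold change of -0.08 ± 0.03 (adjusted p = 0.274 in edgeR). Rpl26, which binds the p53 mRNA, was at 59.4, 69.7, 61.6 and 62.8 CPM against 59.1, 52.3, 58.3 and 60.7, with overlapping groups (log2 fold change -0.14 ± 0.05, adjusted p = 0.27 in edgeR).

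Above 0 stood 6 large subunit and pseudogene-named members and Rps10, none at an unadjusted p under 0.05. Rpl17 had the highest value, 0.42 ± 0.30, from 56.6, 42.0, 42.9 and 130 CPM in the antagonist group and 39.6, 97.1, 107 and 118 in the dual group. Its libraries fell at 2 levels in both groups, low in 3 antagonist libraries and 1 dual library. Rpl7a was at 79, 123, 76.4 and 104 CPM against 128, 101, 109 and 96.3 (0.18 ± 0.11). Rpl24 and Rpl34, with means of 1.17 and 5.89 CPM in the antagonist group, had log2 fold changes of 0.20 ± 0.22 and 0.02 ± 0.11.

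The stalk proteins recruit and activate the translational GTPases, Rplp0 as the base and Rplp1 and Rplp2 as dimers on it. All 3 were lower at an unadjusted p under 0.05 in edgeR (6.81% of all genes). Rplp0 was at 791, 863, 790 and 855 CPM in the antagonist group and at 781, 757, 749 and 684 in the dual group, without overlap (log2 fold change -0.15 ± 0.04, adjusted p = 0.124 in edgeR). Rplp1 was at 661, 799, 689 and 784 CPM against 662, 660, 636 and 599, and Rplp2 at 275, 353, 310 and 364 against 288, 274, 289 and 268. For these dimer partners antagonist replicate 1 fell among the dual libraries, and the log2 fold changes were -0.20 ± 0.05 and -0.22 ± 0.06 (adjusted p = 0.101 and 0.135 in edgeR).

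The paralogues were compared with the gene they resemble. Rps27l codes for 84 residues of which 81 (96.4%) equal those of Rps27, and it was at 97.6 ± 3.16 and 90.9 ± 3.92 CPM (SD, n = 4), a log2 fold change of -0.10 ± 0.04 with an adjusted p of 0.268 in edgeR. Rps27rt codes for the same 84 residues as Rps27 (100%) and was at 37.5, 45.3, 44.8 and 72.3 CPM against 48.2, 53.0, 30.3 and 30. Its groups overlapped and the log2 fold change was -0.32 ± 0.18. Rpl22 and Rpl22l1 (70.3% identity), a pair of RNA-binding proteins, had log2 fold changes of -0.10 ± 0.04 and -0.07 ± 0.05. Rpl7 was lower in every dual library, 523 ± 14.7 against 477 ± 17.0 CPM (adjusted p = 0.0947 in edgeR), and Rpl7l1 (40.7% identity) was at 102 ± 2.69 and 99.3 ± 1.87 CPM.

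Rpl36al codes for the same protein as Rpl36a (100% over 106 residues). It was also paired with Rpl36, but by name alone, and only 19.8% of residues were identical. Rpl36al was at 0.654 ± 0.176 and 0.622 ± 0.151 CPM, and Rpl36a was at 141 ± 9.37 and 127 ± 4.43 CPM. Rpl3 (76.2% identical to Rpl3l) was at 403 ± 14.5 and 374 ± 3.96 CPM without overlap, and Rpl39 shares 94.1% of residues with Rpl39l. Of the 5 pseudogene-named members tested, Rps12-ps3 was lower at an unadjusted p under 0.05 in edgeR (6.81% of all genes), with 64.4 ± 1.43 and 57.6 ± 3.78 CPM. Rps19bp1 was at 20.8 ± 0.827 and 20.4 ± 0.983 CPM, and its log2 fold change of -0.02 ± 0.05 was among those nearest to 0.

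The libraries of the antagonist group were not alike. Members took 2.11, 2.29, 2.12 and 2.28% of all counts in antagonist replicates 1 to 4 and 2.03, 1.98, 2.03 and 1.99% in dual replicates 1 to 4, or 2.2 ± 0.0974% and 2.01 ± 0.026% (SD, n = 4). The shares did not overlap, and antagonist replicates 2 and 4 were the highest. Among the 70 members at a log2 CPM of 6 or more, 43, 69, 44 and 68 were above their own mean over all libraries in the antagonist replicates, and 10, 3, 9 and 7 in the dual replicates. Without antagonist replicates 2 and 4, a choice made after the data were seen, the median log2 fold change of the members was -0.08. At an unadjusted p under 0.05 in edgeR, 32 of 89 were lower (3.51% of all genes) and 2 higher (3.89%). None was called in edgeR, where 0 of all genes were. In that fit Rps12 was at -0.25, Rps27 at -0.04, Rpl39 at -0.04, Rpl36 at -0.05, Rpl41 at -0.08 and Rps6 at -0.08 in log2 fold change.

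**Figure D2:**
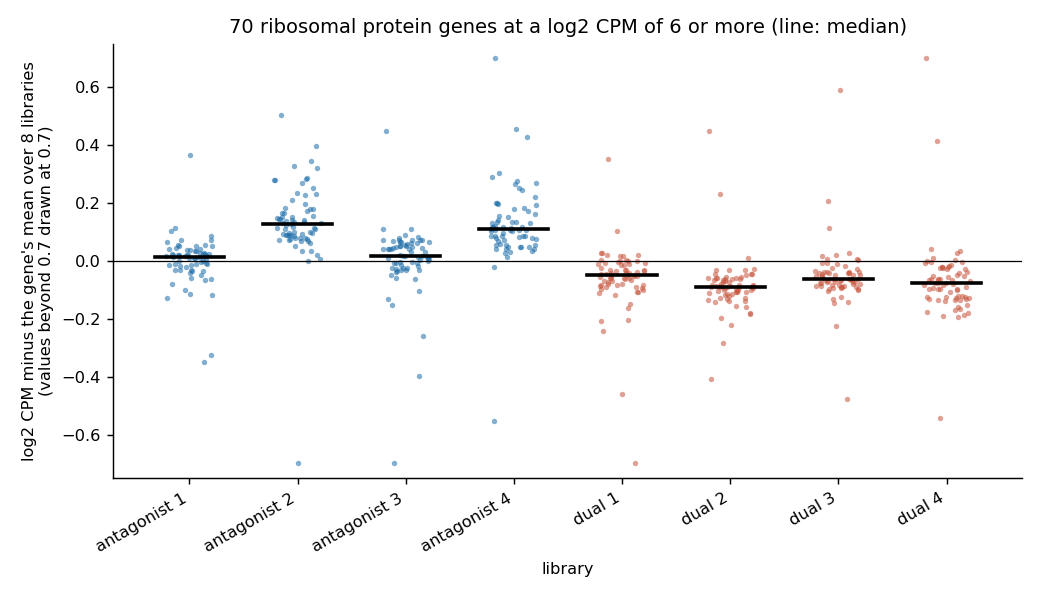
Log2 CPM of each of 70 members (points) minus its mean over the 8 libraries, by library; black lines are medians, and Rpl17, the gene with values beyond 0.7, is drawn at the edge where it exceeds it. The medians are 0.13 and 0.11 in antagonist replicates 2 and 4, 0.01 and 0.02 in antagonist replicates 1 and 3, and -0.09 to -0.05 in the dual libraries.

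The difference was larger for members with a short coding sequence. The 10 members of at most 300 coding bases at this level had a median log2 fold change of -0.23, the 31 members of 300 to 500 bases -0.14, the 22 of 500 to 800 bases -0.11 and the 7 of 800 to 1500 bases -0.12. Across the 70 members, coding length and log2 fold change had a Spearman rho of 0.52 and a Pearson r of 0.36, a description across genes that share libraries and are not independent replicates. In the other 3764 protein-coding genes at that level the medians rose with coding length in every class. They were -0.08, -0.05, -0.03 and -0.02 in these classes, 0.00 at 1500 to 3000 bases and 0.04 above (rho 0.47). Against the other genes of their class, 67 of the 70 members were lower than the median, and the median distance was -0.09. From the shortest class to that of 800 to 1500 bases, 100, 96.8, 86.4 and 100% of the members were lower at an unadjusted p under 0.05 in edgeR. For the other genes of these classes the shares were 47.3, 32.3, 22.4 and 14.6%.

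For the members of every length class, antagonist replicates 2 and 4 were the highest libraries. In antagonist replicates 2 and 4 the members had median deviations of 0.14 and 0.11 at 300 to 500 bases and of 0.10 and 0.08 at 500 to 800. At 800 to 1500 bases these were 0.09 and 0.10. In antagonist replicates 1 and 3 they were 0.01 to 0.04 in these longer classes. The members of at most 300 coding bases had median deviations of 0.27 and 0.25 in antagonist replicates 2 and 4, of -0.05 and -0.03 in antagonist replicates 1 and 3, and of -0.13 to -0.09 in the dual libraries. For the other 74 genes of that class the values were 0.08 and 0.07, -0.01 and 0.03, and -0.06 to -0.03. At 300 to 500 bases the other genes were highest in antagonist replicate 2 (0.039), with 0.0247 in antagonist replicate 4 and 0.0241 in antagonist replicate 3. At 500 to 800 and at 800 to 1500 bases their highest median was in antagonist replicate 3 (0.027 and 0.021). Above 3000 bases their lowest median was in that same library (-0.033).

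**Figure D3:**
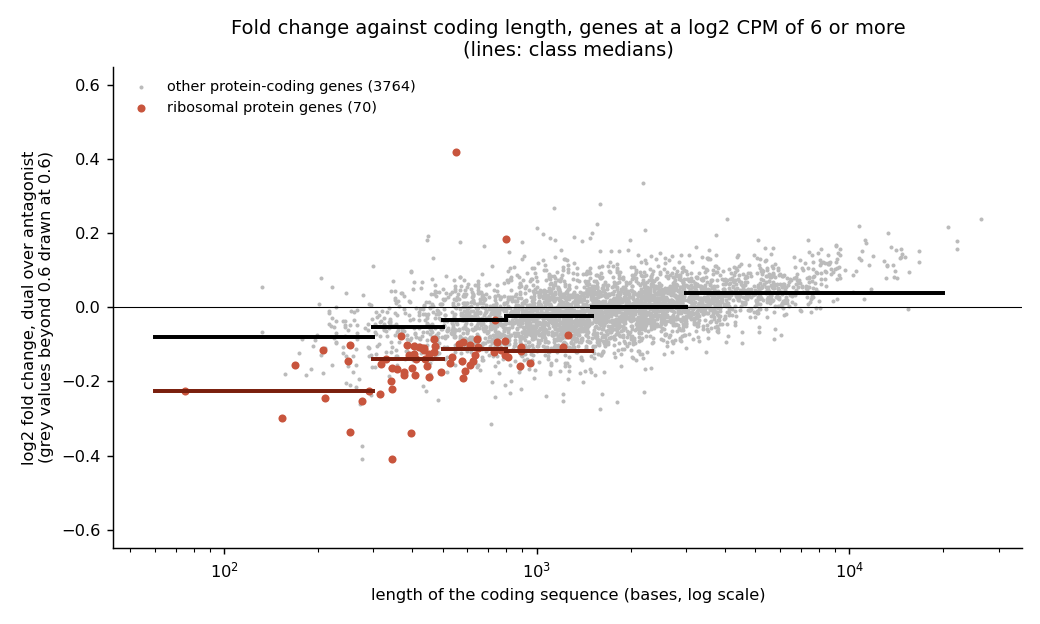
Log2 fold change of the dual over the antagonist group against the length of the coding sequence in bases (log axis) for genes at a log2 CPM of 6 or more; grey points are 3764 other protein-coding genes, red points are 70 members, and lines are class medians. Of the 70 members, 67 lie below the median of the other genes of their length class, and in the shortest class the medians are -0.23 and -0.08.

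Pseudogene rows carried a large part of the counts of some members. Within groups, the SD of log2 CPM had a median of 0.06 over the 70 members and of 0.051 over other genes at that level, and it was over 0.2 for Rpl17, Rpl30, Rps27a, Rpl7a, Rps27 and Rpl39. Rpl17-ps10 on chromosome 7, whose transcript differs from the Rpl17 coding sequence at 4 of 552 positions, was at 185, 177, 187 and 87.2 CPM in the antagonist libraries and at 175, 96.6, 106 and 101 in the dual libraries. It was low in those libraries in which Rpl17 was high. Summed with its 7 pseudogene rows, Rpl17 was at 327, 313, 319 and 310 CPM against 299, 274, 294 and 301, without overlap. The log2 fold change of that sum was -0.12 ± 0.04 (adjusted p = 0.143 in edgeR), where that of the Rpl17 row alone was 0.42.

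Rpl30 and Gm12191 formed a like pair. Gm12191 was at 96.1, 95.1, 92.1 and 119 CPM against 92.0, 84.0, 100 and 105, and the sum of Rpl30 with its 8 pseudogene rows was at 199, 210, 200 and 186 against 176, 179, 166 and 168. The sum no longer overlapped, with a log2 fold change of -0.21 ± 0.04 and an adjusted p of 0.0277 in edgeR. Rps10, Rpl34 and Rps2 rows held 2.60%, 2.16% and 1.62% of their sums. Their sums had log2 fold changes of -0.11 ± 0.04, -0.19 ± 0.04 and -0.10 ± 0.04, all below 0, where the Rps10 and Rpl34 rows alone were above. Of the 6 members with an SD over 0.2, the other 4 kept one as sums, with 0.314 for Rps27a, 0.227 for Rpl7a, 0.227 for Rps27 and 0.206 for Rpl39 in log2 CPM. The sum of Rps27 added only the row Rps27-ps1, and the Rps27 row held 100% of it. It left out Rps27rt, so reads shared with Rps27rt were not tested.

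The whole set was fitted again with these sums, a choice made after the data were seen. Of the 84 members then tested, 82 were below 0 (48.5% of all genes) and 2 above (51.5%), 73 were lower at an unadjusted p under 0.05 (6.76%) and 0 higher (5.98%), and the groups did not overlap for 49 lower (4.09%) and 0 higher (3.34%). Those called lower by edgeR were 3 (0.199% of all genes), Rps12 and Rpl30 among them, and 0 were called higher (0.0483%). The median log2 fold change was -0.13 with the sums and without them.

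**Figure D4:**
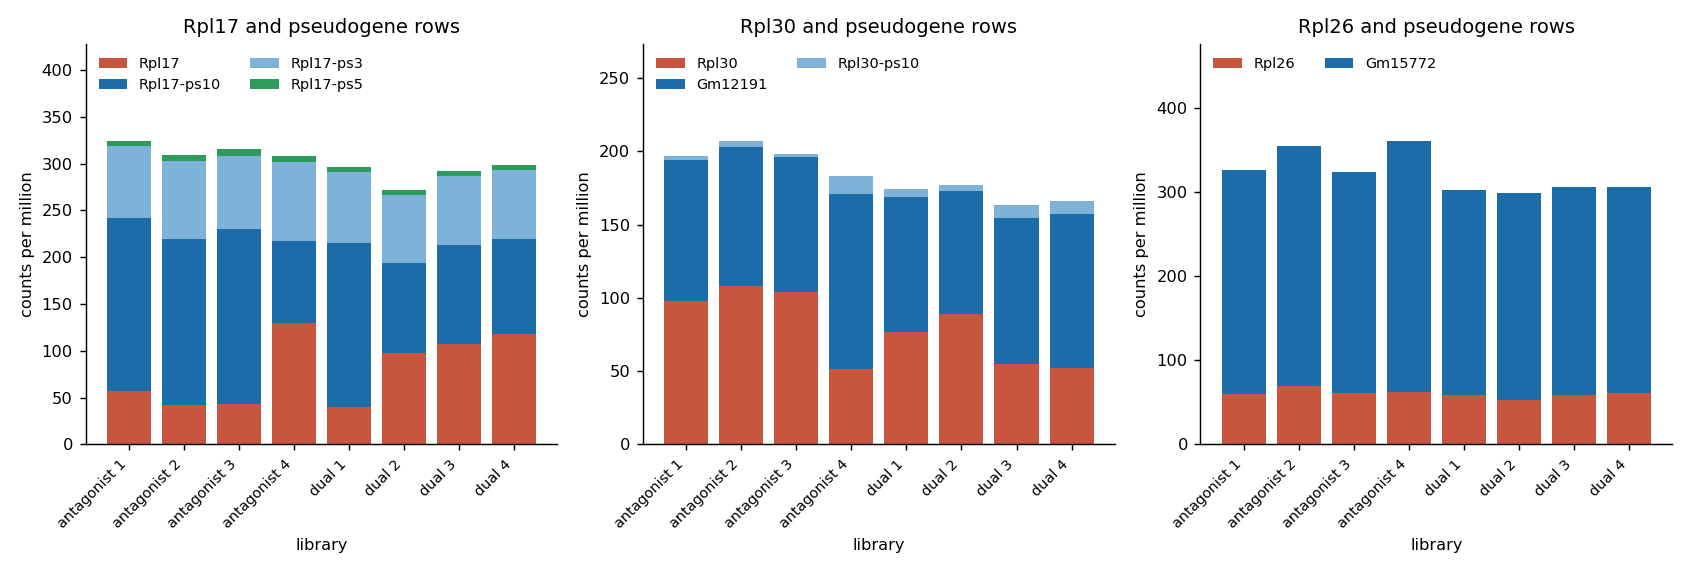
CPM by library of Rpl17, Rpl30 and Rpl26 (red) stacked on the pseudogene rows of each that reached a mean of 3 CPM. The red part of Rpl17 changes between libraries while the height of the stack stays between 274 and 327 CPM as a sum over all its rows, and the Rpl26 row is a small part of its stack in all libraries.

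Activated cells given vehicle were the control of the study. For antagonist against control, the group means of the authors' normalised counts are given, with no error and no test, and the antagonist libraries enter both comparisons. Of 89 members with a mean of at least 10 in either group, 2 were past 1.5-fold higher with the antagonist (4.23% of 19557 genes) and 2 past 1.5-fold lower (12.6%). The median ratio of antagonist to control was 1.06 over the members and 1.01 over all genes, and 73 of the 89 members were above 1, where 51.1% of all genes were.

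Rpl26 had the highest ratio, 12.9, from an authors' mean of 212 in the control and 2730 with the antagonist. The row of its pseudogene Gm15772 had authors' means of 13100 and 12000, and the sum of Rpl26 with its pseudogene rows had a ratio of 1.10. Rpl30 had means of 639 and 3890, a ratio of 6.09, and its sum a ratio of 1.21. Rpl17 was at 4710 in the control and 2920 with the antagonist, a ratio of 0.621, and its sum was at 13100 and 13700, a ratio of 1.04. Over the 72 members with pseudogene rows, the ratios of the sums ran from 0.896 to 1.26, and 0 were past 1.5-fold. Rps27rt had the third highest ratio of single rows, 1.42, and the lowest were those of Rpl9-ps1, listed at 0 with the antagonist and at 2.17 in the control, and Rpl39l, 10.2 and 25.3.

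**Figure D5:**
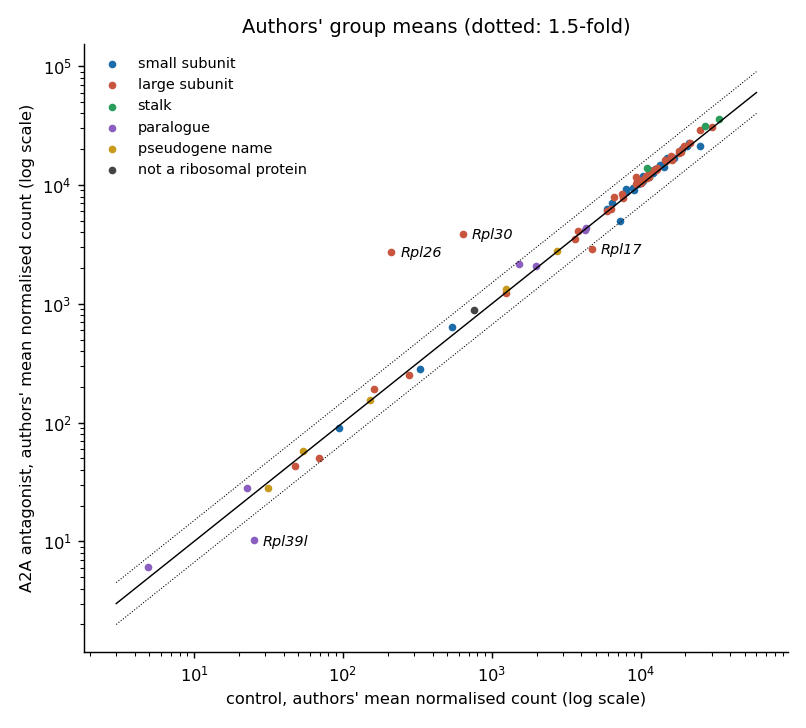
Authors' mean normalised count of each member in the antagonist group (vertical) and in the control (horizontal), both on log axes, coloured by class; the solid line marks equal means and dotted lines mark 1.5-fold. Most members lie close to the line, and Rpl26, Rpl30, Rpl17 and Rpl39l lie outside the dotted lines; Rpl9-ps1, listed at 0 in the antagonist group, is not drawn.

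Other genes of the translation machinery were compared between the dual and the antagonist group in the same fit. In it, 6.81% of all genes were lower and 5.98% higher at an unadjusted p under 0.05 in edgeR. The 3 ribosomal proteins outside the naming rule had a median log2 fold change of -0.14, with 2 lower at an unadjusted p under 0.05. Rack1, a scaffold on the small subunit, had a log2 fold change of -0.15 ± 0.04, and Fau, which yields the small subunit protein eS30, one of -0.12 ± 0.04 (adjusted p = 0.0862 and 0.204 in edgeR). Among 15 elongation factors and other genes with TOP mRNAs, all 15 were below 0, 8 at an unadjusted p under 0.05, with a median of -0.08. Eef1a1, which delivers tRNAs to the ribosome, was at 4520 ± 56.0 and 4260 ± 64.8 CPM (log2 fold change -0.09 ± 0.03, adjusted p = 0.178 in edgeR).

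The 20 ribosome biogenesis genes had a median of -0.06 with 2 lower, Fbl and Nop10, and the 14 initiation factors a median of -0.03 with 3 lower, Eif5a, Eif4a1 and Eif6, each at an unadjusted p under 0.05. The 15 regulators of translation had a median of 0.02, with Eif4ebp1 and Max lower and Rps6kb1 higher, and of the 7 snoRNA host genes 1, Snhg6, was lower. The 77 mitochondrial ribosomal proteins, which serve the separate ribosome of mitochondria, had a median of -0.08, with 30 lower and 0 higher. The counts of all these lists stand beside 6.81% of all genes lower and 5.98% higher. That background was not matched for coding length. Among other genes of at most 300 coding bases at a log2 CPM of 6 or more, 47.3% were lower. The 97 rows of ribosomal protein pseudogenes that passed the filter had a median of -0.12, with 28 lower and 0 higher. In none of these lists was a gene called by edgeR.

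Markers of cell types were compared in the same fit, in which 6.81% of all genes were lower and 5.98% higher at an unadjusted p under 0.05 in edgeR. The 14 microglial markers had a median log2 fold change of -0.05, with 4 lower and 1 higher at an unadjusted p under 0.05, and C1qa, a complement gene, was called at -0.24 ± 0.04 (adjusted p = 0.024 in edgeR). The 9 astrocyte markers had a median of 0.03 with 1 lower and 2 higher, the 6 fibroblast markers one of 0.11 with 3 higher, and the 7 oligodendrocyte markers one of -0.05 with 1 lower. The fibroblast markers summed to 2380 to 2650 CPM in the antagonist group and 2370 to 2990 in the dual group, the oligodendrocyte markers to 500 to 536 and 461 to 492. Markers of neurons, endothelial cells, mural cells and cycling cells had medians of -0.07, 0.17, 0.03 and -0.02, with none at an unadjusted p under 0.05. The part of these cell type markers in the lower ribosomal protein values was not tested.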

How the data were processed

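RNA of 8 libraries, prepared with an mRNA kit, was sequenced by the authors as paired-end reads, aligned with HISAT2 to an Ensembl mouse genome (mm10 per the labels) and counted per gene with featureCounts 1.5.0-p3. The deposited values used here are raw counts, the authors' FPKM and the authors' group means of normalised counts (a normalised signal). Whether counting used strand or multiply mapped reads is not given in the sources used here, so overlapping and near-identical genes are uncertain. The FPKM were scaled by the authors with the deposited gene length. Deposited columns with the authors' own test results (log2 fold change, p-value, padj) were not used, nor were 9 per-sample control columns that belong to no sample of the series. The study's methods text gives 4 vehicle and 3 ligand replicates, while a figure legend of the study, the labels (4 libraries in each ligand group) and the headers (3 controls) give the reverse; the time label reads day 3.

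Counts of all genes were fitted with edgeR 4.0.16 (R 4.3.3): filterByExpr with a minimum count of 10 (18756 genes), TMM factors (0.992 to 1.01), quasi-likelihood F test of dual against antagonist without covariates, two-sided, Benjamini-Hochberg adjusted. The common biological coefficient of variation was 5.28%. CPM use TMM-scaled library sizes, and log2 CPM add a prior count of 2. DESeq2 1.42.0, other scalings, no filter, a replicate block and leaving out libraries were alternatives. For sums, the counts of a member were added to those of rows named as its pseudogenes and of its top partner by shared 31-base words where that is a pseudogene. Shared 31-base words, coding lengths and identities came from GENCODE M21, with Biopython 1.88; 87 of 91 members had the same coordinates there. The edgeR script was tested on simulated data.

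The members and gene lists were chosen with earlier results of these data known. Genes named are the members called, the 5 largest rises and falls, the 5 highest and lowest by FPKM, paralogue pairs, the 3 highest and lowest ratios of authors' means, stalk proteins, Rpsa, Rps27a, Rps6, Rps19bp1, Rps12 and Rpl26, and, from the other lists, genes called and the ribosomal proteins outside the naming rule, some results of which are not reported here. Rpl4, Rps2, Rpl21, Rps12-ps3, the pseudogene rows and the listed genes at an unadjusted p under 0.05 were named after their values were seen.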

Additional observations from a re-analysis of the deposited data

Results flagged for a closer look

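In 2 of the 68 groups of 4 libraries examined, over 33 named members and the share of counts, 1 library stood apart from the other 3 by Dixon's criterion at the 95% level, which chance alone exceeds in about 1 of 20 groups. Rpl17 was at 130 CPM in antagonist replicate 4 and at 42.0 to 56.6 CPM in the other 3 antagonist libraries. Rps19bp1 was at 21.9 CPM in dual replicate 2 and at 19.7 to 20 CPM in the other 3 dual libraries.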

How the results depend on the processing

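With the DESeq2 Wald test 45 members were called (4.7% of all genes), without the low-count filter 42 (1.17%) and with pseudogene rows summed 3 (0.247%), against 1 in the edgeR fit as reported (0.208%). Leaving out 1 library at a time gave 0 to 24 members called. The count was 24 without antagonist replicate 1 (0.902% of all genes), and 0 without antagonist replicate 4 and without dual replicate 3 (0 of all genes). It was 2 without dual replicate 1 and 3 without dual replicate 4 (0.162% and 0.258%). These fits gave medians of -0.148 to -0.113 in log2 and differences in share of -0.223 to -0.164 percentage points (-0.194 as reported). Without antagonist replicates 2 and 4 together, chosen like the sums after the data were seen, these were 0 called (0 of all genes), 34 at an unadjusted p under 0.05, a median of -0.081 and a difference of -0.11. DESeq2 size factors, TMM factors without the members and total counts each gave 1 called (0.208% of all genes). With a replicate block, 1 member was called (17 of all genes, against 39 without it) and the median was -0.13, so no call of a member changed. No same-numbered pair correlated above 0.041 and the numbers were not taken as pairs. The cause of these shifts was not tested.

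Signs of single log2 fold changes turned for low or widely spread members. With pseudogene rows summed, Rpl17 was at -0.12, Rpl24 at -0.18, Rpl34 at -0.19, Rps10 at -0.11 and Rpl29 at 0.051. With 1 library left out at a time, Rps27a ran from -0.26 to 0.035 (above 0 without antagonist replicate 2, dual replicate 1 or dual replicate 2), Rpl34 from -0.045 to 0.10 (below 0 without antagonist replicate 1, antagonist replicate 3 or dual replicate 4), Rpl36al from -0.21 to 0.085 (above 0 without antagonist replicate 1 or dual replicate 4) and Rpl29 from -0.21 to 0.020 (above 0 without dual replicate 3). Rps27a was at 0.088 without antagonist replicates 2 and 4. The standard errors of Rps10, Rpl24 and Rpl29, at means of 0.937 to 2.70 CPM, were 0.19 to 0.22, above the median change of the members. A difference of that size was therefore not detectable in single rows with so few counts.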
